A study of Mus musculus with 30 samples.

Results

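Polk, Ercc5, Xpc, Ddb2, Rrm2b, Btg2, Phlda3, Ei24 and Gdf15 are 9 genes listed as targets of the transcription factor p53. Each is listed under DNA repair or growth arrest, and whether p53 regulates it in these mouse cells was not tested. They were taken by name, with earlier results of these data known, from the 34724 gene symbols measured in mouse embryonic fibroblasts, and all 9 were among the 14093 genes that passed the filter on low values (1 TPM or more in 3 or more libraries). TPM, the unit here, is transcript abundance scaled to length and to a common total per library. All cells were Cry2-/- primary fibroblasts that stably overexpressed c-MYC, grown in 15% serum and 3% oxygen. Each culture also expressed a construct: a vector with no insert (EV), unchanged CRY2 (WT), or 1 of the changed proteins D325H, S510L and F428D. Low density means 150 cells per well harvested on day 14 and high density 500 cells per well harvested on day 11, so density and time of growth cannot be told apart. Each of the 10 groups held 3 biological replicates, each made from 2 combined wells. CRY2 represses transcription in the circadian clock. The labels do not say whether a construct was introduced into more than 1 line, so a construct and its line cannot be told apart, and the p-values cover no more than the spread among these replicates, which may be technical.

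The protein p53 binds its response elements near target genes after DNA damage or other stress and raises their transcription. Some targets act in repair: damage recognition and incision in nucleotide excision repair, synthesis past a lesion, and the supply of deoxynucleotides. Others slow growth or signal to other cells. The level of Trp53, the gene for p53, is given beside the targets because its own RNA differed between the groups. In bulk RNA, fewer cells that express a gene and less of its RNA in each cell cannot be told apart.

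Cry2, the gene the cells lack, read 3.82 to 5.55 TPM in the 6 EV libraries and 13.2 to 161 TPM in the 24 libraries with a CRY2 construct, so this gene separates EV from the constructs. It cannot check which of WT, D325H and F428D a library holds. Their values overlap, at 44.1 to 97.9 TPM in WT, 49.7 to 161 in D325H and 58.5 to 125 in F428D. S510L libraries had less Cry2 than WT libraries, at 13.2 to 39.5 against 44.1 to 97.9 TPM (log2 difference -1.80 at low and -1.39 at high density, limma, adjusted p = 0.000539 and 0.0116). Trp53 read 240.4 to 330.1 TPM in WT and 214 to 326 TPM in EV and F428D. It was at 15.4, 17.7 and 131 TPM in D325H low, at 59.2, 32.6 and 126 in D325H high, at 54.6, 24.7 and 80.3 in S510L low, and at 111, 86.9 and 73.2 in S510L high. The D325H and S510L libraries thus all lay below every other library for Trp53, with a wide range among themselves. Against WT, Trp53 differed by -3.02, -2.52 and -2.07 in D325H low, S510L low and D325H high (limma, adjusted p = 0.000287, 0.00125 and 0.015). In S510L high it differed by -1.57 (adjusted p = 0.0605), which did not pass the threshold of 0.05. The 5 endothelial markers, 4 of 5 macrophage markers, Epcam, Krt5, Myod1, Myog, Myh3 and Gfap were under 1 TPM in every library, and the markers of epithelial, nerve and fat cells summed to at most 96.1, 72.7 and 185 TPM. The 5 skeletal muscle markers summed to 11.7 to 22.9 TPM in WT low, 45.3 to 111 in D325H low and 32.7 to 78.9 in S510L low, and to 21.0 to 27.7, 41.2 to 67.2 and 22.6 to 34.3 in WT high, D325H high and S510L high. In D325H low, S510L low and S510L high, 4 of the 5 (Myod1, Myog, Des and Myh3) were under 1 TPM in all 3 libraries. The sums there were thus mainly Acta1 and do not show a rise of the set. Des was not under 1 TPM in all 3 libraries of WT low, WT high or D325H high. The 10 fibroblast markers summed to 9516 to 11906 TPM in WT low, 13110 to 16501 in D325H low and 13597 to 14590 in S510L low, and to 11232 to 11851, 12132 to 13803 and 12555 to 13837 in WT high, D325H high and S510L high. Of these 10, 7, 6, 3 and 1 were called higher than with WT in D325H low, S510L low, D325H high and S510L high, and 1, S100a4, was called lower in each low-density comparison. The 6 chondrocyte markers summed to 335 to 730 TPM in WT low, 835 to 1476 in D325H low and 4569 to 5071 in S510L low, and to 330 to 501, 227 to 422 and 1504 to 2288 in WT high, D325H high and S510L high. Of these 6, 4 were called higher in D325H low, 1 in D325H high and all 6 in S510L at both densities. Of all genes, 14.8%, 15.0%, 5.46% and 7.39% were called higher in D325H low, S510L low, D325H high and S510L high. In D325H low and S510L low, 14.1% and 8.30% were called lower. The 1 of 10 fibroblast markers in S510L high is near its share. Called is defined in the next paragraph. The part of these markers in the differences between groups was not tested. Genes above 0 numbered 16258 in D325H high 3 and 15910 in F428D high 2, against 18389 to 19269 in the other 28 libraries. Without both, chosen after seeing the data, Ddb2 lost its calls in S510L high against WT and in D325H high against EV (limma, adjusted p = 0.0521 and 0.0599), and Polk and Ercc5 gained one in the latter (adjusted p = 0.0255 and 0.0495). The mitochondrial share was 1.57 to 1.99% in S510L low against 2.28 to 3.07% in WT low, and 2.23 to 2.57% in S510L high against 3.37 to 4.47% in WT high. D325H high and EV high, at 1.68 to 3.31% and 1.93 to 3.34%, also lay below all WT high libraries. The part of this share in the results was not tested. No read depth is given with TPM, so precision rests on the replicates.

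With D325H at low density, 6 of the 9 genes were lower than with WT and 1, Ddb2, was higher, beside 29.0% of all genes called in either direction, 14.1% lower and 14.8% higher. S510L at low density gave 7 lower and the same 1 higher (23.3% of all genes called, 8.30% lower and 15.0% higher). At high density D325H gave 6 lower and 1 higher (10.2% called, 4.73% lower and 5.46% higher), and S510L 5 lower and 1 higher (9.17% called, 1.78% lower and 7.39% higher). Called means a limma p, adjusted by Benjamini-Hochberg over all genes tested, under 0.05. Polk, Ercc5, Btg2, Phlda3 and Ei24 were called lower in all 4 comparisons. Each library of D325H low lay below each of WT low for 6 of the 9 genes (13.4% of all genes) and above for 1 (17.9%), and for S510L low this held for 7 (13.2%) and 1 (19.6%). At high density it held for 6 (19.0%) and 1 (20.2%) with D325H, and for 7 (11.1%) and 1 (29.3%) with S510L. Differences are given on the scale of log2(TPM + 1), which understates changes at low TPM. The median difference of the 9 was -1.11, -1.02, -0.88 and -0.66 in D325H low, S510L low, D325H high and S510L high, against -0.0038, 0.037, 0.0074 and 0.099 over all genes.

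**Figure D1:**
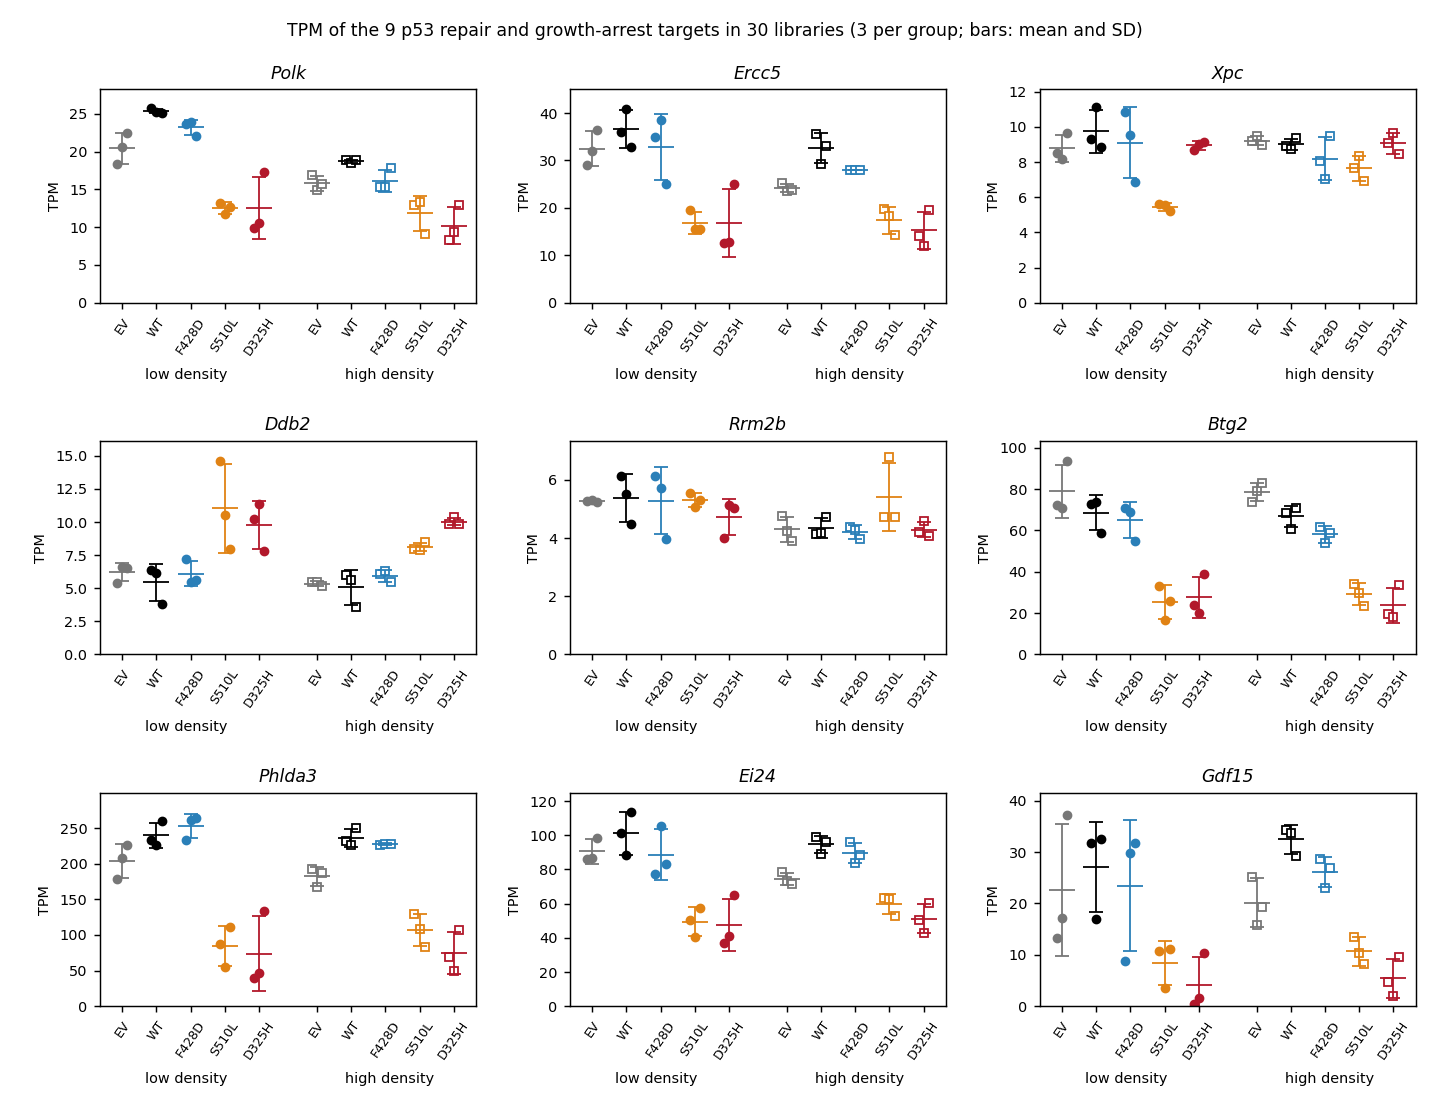
Each panel plots 1 gene in TPM (vertical axis, from 0) in the 30 libraries by construct and density; points are libraries and bars the mean and SD of 3. Polk, Ercc5, Btg2, Phlda3 and Ei24 of the S510L and D325H libraries lie below those of WT at the same density, Ddb2 lies above, and Rrm2b shows no such order.

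Polk encodes DNA polymerase kappa, which copies past bulky lesions, and lies on chromosome 13 (96480690 to 96542579, minus strand, GRCm38). It read 25.7, 25.3 and 25.1 TPM in WT low, 9.82, 10.5 and 17.3 in D325H low, and 13.2, 11.7 and 12.7 in S510L low. At high density it read 18.8, 18.5 and 18.8 TPM in WT, 8.35, 9.35 and 12.9 in D325H, and 13.0, 13.4 and 9.15 in S510L. No library of D325H or S510L reached a WT library of its density. Polk fell by 1.00 ± 0.16 (SE) with D325H low and by 0.96 ± 0.16 with S510L low (limma, adjusted p = 0.000149 and 0.000156), and by 0.84 ± 0.16 and 0.64 ± 0.16 at high density (adjusted p = 0.00336 and 0.0141). The S510L high call ended without WT high 3 (adjusted p = 0.0504) or S510L high 3 (adjusted p = 0.0844).

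Ercc5 encodes XPG, the nuclease that cuts on the 3′ side of the damaged stretch in nucleotide excision repair (chromosome 1, 44147744 to 44181260, plus strand). Its WT low libraries stood at 36.1, 40.9 and 32.9 TPM, D325H low at 12.5, 12.8 and 25.1, and S510L low at 19.4, 15.5 and 15.5. Its high-density values were 35.5, 29.2 and 33.1 TPM with WT, 14.1, 12.0 and 19.6 with D325H, and 19.8, 18.2 and 14.2 with S510L. In both D325H groups replicate 3 was the highest, as it was for Trp53, and no library overlapped WT. Ercc5 fell by 1.15 ± 0.20 and 1.08 ± 0.20 with D325H and S510L at low density (limma, adjusted p = 0.000339 and 0.000477). At high density Ercc5 fell by 1.07 ± 0.20 and 0.88 ± 0.20 (adjusted p = 0.00315 and 0.00779).

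Xpc encodes the protein that recognises distorted DNA in global-genome nucleotide excision repair (chromosome 6, 91489305 to 91515888, minus strand). It read 9.31, 11.2 and 8.83 TPM in WT low, 8.68, 9.02 and 9.17 in D325H low, and 5.61, 5.56 and 5.20 in S510L low. The 3 S510L low libraries were the lowest of all 30. Xpc was lower with S510L low than with WT low by -0.73 ± 0.13 (limma, adjusted p = 0.000217). With D325H low the difference was -0.11 (95% interval -0.37 to 0.15, adjusted p = 0.562). At high density the S510L libraries, at 7.65, 8.36 and 6.94 TPM, lay just below the WT libraries at 8.92, 8.75 and 9.38, a difference of -0.21 (-0.47 to 0.05, adjusted p = 0.317), and D325H differed from WT by 0.0071 (-0.25 to 0.27). Quantile normalization called Xpc in S510L high (adjusted p = 0.0191), as did library weights (adjusted p = 0.0139).

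Ddb2 encodes a subunit of the complex that finds ultraviolet photoproducts and passes them to XPC (chromosome 2, 91211572 to 91236982, minus strand). It read 6.37, 6.17 and 3.84 TPM in WT low, 10.2, 11.3 and 7.80 in D325H low, and 14.6, 10.5 and 7.98 in S510L low. It read 6.04, 5.61 and 3.58 TPM in WT high, 9.86, 10.4 and 9.89 in D325H high, and 7.99, 7.89 and 8.49 in S510L high. All 12 D325H and S510L libraries were above all 6 WT libraries, opposite in direction to the other called genes. Ddb2 rose by 0.75 ± 0.19 and 0.89 ± 0.19 with D325H and S510L at low density (limma, adjusted p = 0.00483 and 0.00143) and by 0.89 ± 0.19 and 0.61 ± 0.19 at high density (adjusted p = 0.0055 and 0.0416). The last of these calls ended in 10 of 17 alternatives, among them quantile normalization (adjusted p = 0.119) and leaving out WT high 3 (adjusted p = 0.24), WT high 2 (0.0633) or any of the 3 S510L high libraries (0.0954, 0.105 and 0.0989).

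In GENCODE M21, 652 exonic bases of Ddb2, 23.8% of its exons, are shared with Acp2, a lysosomal acid phosphatase gene on the opposite strand. Strand use in the counting is not given in the sources used here, so reads of the 2 genes may be mixed. Acp2, named after its values were seen, read 18.5 to 23.1 TPM in WT low, 26.7 to 31.9 in D325H low and 22.7 to 26.3 in S510L low. Acp2 was called higher with D325H low (0.52 ± 0.15, limma, adjusted p = 0.0134) and was not called with S510L low (0.24 ± 0.15, adjusted p = 0.265), D325H high (0.32 ± 0.15, adjusted p = 0.174) or S510L high (0.17 ± 0.15, adjusted p = 0.538). Its part in the Ddb2 values was not tested. Rrm2b and Ei24 share 8.04% and 6.66% of their exonic bases with antisense genes of that annotation, Gm49085 and Gm26787, and carry the same uncertainty.

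Rrm2b encodes the small subunit of ribonucleotide reductase that p53 induces outside S phase (chromosome 15, 37923952 to 37961318, minus strand). It was the lowest of the 9 in mean TPM, and ranged between 3.91 TPM in EV high 3 and 6.77 in S510L high 2. It read 6.14, 5.51 and 4.50 TPM in WT low, 4.00, 5.15 and 5.03 in D325H low, and 5.54, 5.06 and 5.30 in S510L low, and these groups overlapped. It was called in no comparison. Its differences from WT were -0.15 (95% interval -0.44 to 0.14) with D325H low, -0.011 (-0.30 to 0.28) with S510L low, -0.015 (-0.31 to 0.28) with D325H high and 0.25 (-0.04 to 0.54) with S510L high. With library weights it was called lower in D325H low (adjusted p = 0.0035) and in S510L low (adjusted p = 0.0078).

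Btg2 encodes an antiproliferative protein that recruits the CCR4-NOT deadenylase to messenger RNA (chromosome 1, 134075170 to 134079120, minus strand). It read 72.9, 74.0 and 58.7 TPM in WT low, 24.0, 19.9 and 38.9 in D325H low, and 32.9, 16.7 and 26.0 in S510L low. It read 68.7, 60.9 and 70.7 TPM in WT high, 19.5, 18.1 and 33.6 in D325H high, and 34.3, 29.6 and 23.6 in S510L high. The highest of the 12 D325H and S510L libraries lay below the lowest of the other 18. Btg2 fell by 1.33 ± 0.23 and 1.45 ± 0.23 at low density (limma, adjusted p = 0.000305 and 9.73e-05), for D325H and S510L. At high density it fell by 1.51 ± 0.23 and 1.18 ± 0.23 (adjusted p = 0.000763 and 0.00247).

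Phlda3 encodes a small pleckstrin-homology protein that competes with AKT for membrane lipids (chromosome 1, 135766119 to 135769136, plus strand), and was the most abundant of the 9. Its libraries stood at 233, 227 and 259.6 TPM in WT low, 39.8, 46.8 and 134 in D325H low, and 87.9, 55.6 and 112 in S510L low. The high-density libraries stood at 232, 226 and 250.5 TPM with WT, 68.4, 48.8 and 106 with D325H, and 129, 109 and 83.7 with S510L. In each of these 4 groups the order of the 3 libraries was that of Trp53, and none reached WT or EV. Phlda3 fell by 1.91 ± 0.31 with D325H low and 1.54 ± 0.31 with S510L low (limma, adjusted p = 0.000153 and 0.000848). At high density it fell by 1.72 ± 0.31 and 1.15 ± 0.31 (adjusted p = 0.00211 and 0.0195). The Phlda3 call in S510L high ended without WT high 1, 2 or 3 (adjusted p = 0.0558, 0.0512 and 0.074) and without S510L high 2 or 3 (adjusted p = 0.0602 and 0.0802).

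Ei24, also known as PIG8, encodes a protein of the endoplasmic reticulum linked to growth suppression and autophagy (chromosome 9, 36779159 to 36797393, minus strand). It read 102, 88.3 and 113 TPM in WT low, 36.8, 41.0 and 64.9 in D325H low, and 50.2, 40.7 and 57.4 in S510L low. It read 98.8, 89.1 and 95.9 TPM in WT high, 50.5, 43.0 and 60.3 in D325H high, and 63.6, 62.5 and 53.1 in S510L high. Here too the order within each D325H and S510L group was that of Trp53, and no library overlapped WT or EV. Ei24 fell by 1.11 ± 0.16 and 1.02 ± 0.16 at low density (limma, adjusted p = 8.07e-05 and 1e-04), and by 0.88 ± 0.16 and 0.66 ± 0.16 at high density (adjusted p = 0.00286 and 0.0131), with D325H and S510L. The Ei24 call in S510L high ended without WT high 1 (adjusted p = 0.0547) or S510L high 3 (adjusted p = 0.0571).

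Gdf15 encodes a secreted stress hormone of the TGF-beta superfamily whose receptor pairs GFRAL with RET (chromosome 8, 70629393 to 70632456, minus strand). It read 31.8, 17.0 and 32.5 TPM in WT low, 0.355, 1.52 and 10.4 in D325H low, and 10.7, 3.54 and 11.2 in S510L low. It read 34.3, 33.8 and 29.3 TPM in WT high, 4.73, 2.04 and 9.49 in D325H high, and 13.6, 10.3 and 8.12 in S510L high. No library of D325H or S510L reached a WT library of its density. Of the 9 genes Gdf15 spread the most, with a median SD within a group of 0.62 on the log2 scale, against 0.098 to 0.21 for the others. With D325H, Gdf15 fell by 2.99 ± 0.59 at low density (limma, adjusted p = 0.000829), and it fell by 2.56 ± 0.59 at high density (adjusted p = 0.00913). With S510L low it fell by 1.65 ± 0.59 (adjusted p = 0.045). In S510L high the difference was -1.54 (95% interval -2.76 to -0.33) and was not called (adjusted p = 0.102), though it was with a pseudocount of 5 (adjusted p = 0.0404), library weights (0.00198) or only these groups fitted (0.00294). The S510L low call ended in 7 alternatives, among them without WT low 1 or 3 (adjusted p = 0.132 and 0.118), without S510L low 1 or 2 (adjusted p = 0.0614 and 0.228) and with a pseudocount of 0.1 (adjusted p = 0.0875), and the D325H high call without D325H high 2 (adjusted p = 0.0822).

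**Figure D2:**
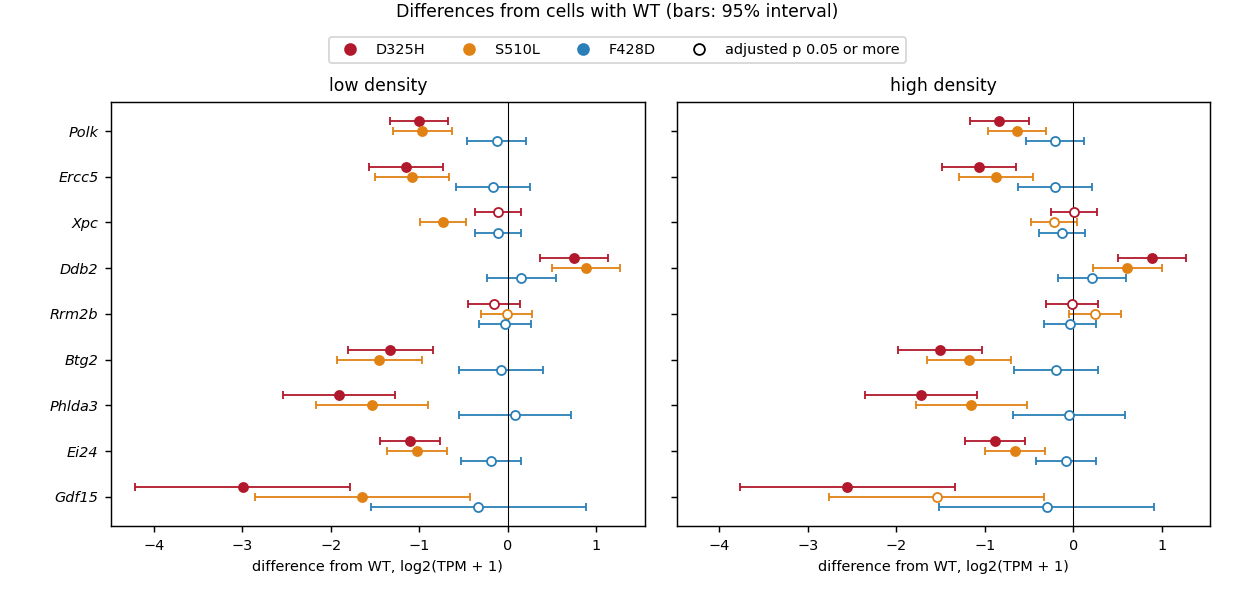
The difference from WT in log2(TPM + 1) (horizontal axis) is plotted for each gene and construct at low (left) and high density (right), with 95% intervals; filled points are called. Filled points lie left of 0 for Polk, Ercc5, Btg2, Phlda3 and Ei24 with D325H and S510L and right of 0 for Ddb2, and every F428D point is open.

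When only the 6 libraries of D325H low and WT low were fitted, none of the 7 calls held, at adjusted p = 0.0588 for Btg2 to 0.123 for Ddb2, with the same directions. In that fit the spread comes from 6 libraries alone. The same fit for S510L low ended the calls of Ddb2 and Gdf15 (adjusted p = 0.0953 and 0.0726). For S510L high, the count of 6 called genes lay between 2 and 5 when 1 of the 6 libraries was left out, with 2 called without S510L high 3. The shares of all genes called in these fits are not given here, so the lost calls cannot be set against all genes.

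The promoters of Phlda3, Ei24 and Btg2 are shown as those of 3 growth-arrest genes that fell in all 4 comparisons. The RefSeq promoter table (GRCm38.p6) matched 6 of the 9 genes, and Xpc, Ddb2 and Rrm2b had no entry. Each line gives the 250 bases before the annotated start, 5′ to 3′, for Ei24 (chr9:36797335-36797584, minus strand), Phlda3 (chr1:135765835-135766084, plus strand) and Btg2 (chr1:134079156-134079405, minus strand), and capitals mark a match to the p53 half-site.
Ei24: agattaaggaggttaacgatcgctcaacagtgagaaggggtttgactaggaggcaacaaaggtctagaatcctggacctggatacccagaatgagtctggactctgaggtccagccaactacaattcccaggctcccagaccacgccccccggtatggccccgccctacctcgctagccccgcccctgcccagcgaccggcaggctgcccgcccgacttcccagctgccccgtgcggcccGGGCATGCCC
Phlda3: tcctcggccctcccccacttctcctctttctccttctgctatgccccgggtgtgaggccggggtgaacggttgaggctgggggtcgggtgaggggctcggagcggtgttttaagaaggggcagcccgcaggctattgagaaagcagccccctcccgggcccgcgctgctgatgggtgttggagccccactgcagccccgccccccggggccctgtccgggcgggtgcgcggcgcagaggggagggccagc
Btg2: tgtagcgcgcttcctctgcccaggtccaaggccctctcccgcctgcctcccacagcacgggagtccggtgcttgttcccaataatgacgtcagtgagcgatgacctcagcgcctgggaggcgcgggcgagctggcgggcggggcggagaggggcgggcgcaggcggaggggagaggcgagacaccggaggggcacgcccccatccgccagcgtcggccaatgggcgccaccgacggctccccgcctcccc
The windows of 300 bases, from 250 before to 50 after the start, were searched on both strands for the p53 half-site (the degenerate motif of 10 bases, 1 copy, no mismatch) and for the E-box CACGTG bound by the CLOCK and MYC families. Ei24 held 1 half-site, 10 bases before its start, and Polk held 1 at an inner annotated start but not at its outer one. The Phlda3, Btg2, Ercc5 and Gdf15 windows held none. Gdf15 held an E-box at an inner start, and the other matched genes of the 9 held none. The Trp53 window, searched in the same way, held a half-site 75 bases before its start and an E-box 10 bases after it. Over all 32851 promoter windows of the table, 8.36% held the half-site and 7.15% the E-box. A match is only a run of letters, and elements outside these windows were not searched.

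WT was next compared with EV. None of the 9 was called at low density (0.305% of all genes called) or at high density (0.0284%), by limma with adjustment over all genes, and at an unadjusted p under 0.05 there were 0 at low density and 1, Ei24, at high density. Of the 14093 genes, 1027 and 979 were under that p at low and high density. Ei24 read 78.4, 73.5 and 71.4 TPM in EV high, below the 3 WT high libraries, a difference of 0.34 (95% interval 0.0032 to 0.68, adjusted p = 0.712). At high density 5 genes (Polk, Ercc5, Phlda3, Ei24 and Gdf15) had all WT libraries above all EV libraries, where 10.9% of all genes did, and Btg2 had them below, where 17.2% did. At low density Polk and Phlda3 had them above, where 4.17% did, and none below, where 6.16% did.

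Between F428D and WT, none of the 9 was called by limma at low (0.0142% of all genes called) or high density (0.0639%), and none reached an unadjusted p under 0.05. Of the 14093 genes, 911 at low and 773 at high density did. The widest F428D intervals were those of Gdf15, -1.55 to 0.88 at low and -1.52 to 0.91 at high density, and the narrowest those of Xpc, -0.37 to 0.15 and -0.39 to 0.13. Polk and Gdf15 of F428D high, at 15.3 to 17.8 and 22.9 to 28.6 TPM, and Ercc5, at 27.9 to 28.0 TPM, lay below all WT high libraries, where 14.7% of all genes did, and Polk of F428D low below all WT low libraries, where 4.02% did. None of the 9 had all F428D libraries above those of WT, where 2.71% of all genes did at low and 5.34% at high density. F428D against EV also gave 0 of 9 called at low (0.142% of all genes called) and at high density (1.82%), with 0 at an unadjusted p under 0.05 in both, beside 1828 and 2665 of the 14093 genes.

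Against EV, D325H low gave 6 lower and 1 higher of 9 (19.9% of all genes called, 10.2% lower and 9.75% higher), and S510L low gave 6 lower and 1 higher (12.8%, 3.85% lower and 8.95% higher), Ddb2 being the higher one each time. At low density both had 7 of the 9 genes below all EV libraries (14.9% of all genes with D325H and 14.8% with S510L) and 1 above (19.4% and 20.1%). Gdf15 was not called with S510L low (-1.32 ± 0.59, limma, adjusted p = 0.146), and Xpc was (-0.60 ± 0.13, adjusted p = 0.00369). At high density D325H gave Btg2 and Phlda3 lower and Ddb2 higher (0.710% of all genes called), and S510L gave Btg2 lower alone (6.15%). D325H high had 6 of the 9 genes below all EV high libraries (17.1% of all genes) and 1 above (12.9%). For S510L high this held for 7 (12.3%) and 1 (25.6%). Btg2 differed from EV by -1.74 ± 0.23 with D325H high and -1.42 ± 0.23 with S510L high (limma, adjusted p = 0.000776 and 0.000662). The Ddb2 call against EV in D325H high (adjusted p = 0.0456) and that of Phlda3 (adjusted p = 0.0453) ended without any 1 of the 3 EV high libraries, with adjusted p of 0.123 to 0.18, and without D325H high 1 or 2, with 0.105 to 0.263. At low density the Ddb2 call with D325H ended in 7 alternatives (adjusted p = 0.0515 to 0.15), and Polk and Gdf15 lost theirs without D325H low 1 (adjusted p = 0.0582 and 0.0533). With S510L low, Polk, Ddb2 and Phlda3 lost theirs without S510L low 2 (adjusted p = 0.0531, 0.0528 and 0.0677). At high density the EV libraries lay below those of WT and above those of D325H and S510L for Polk, at 16.9, 14.9 and 15.7 TPM, for Ercc5, at 25.2, 23.6 and 23.9, for Phlda3, at 192, 167 and 187, for Ei24, and for Gdf15, at 25.2, 15.8 and 19.3. With only the groups compared fitted, D325H against EV gave 0 called at either density, and S510L high against EV gave 6. The shares of all genes called in those fits are not given here. The comparisons with EV and with WT share the libraries of D325H, S510L and F428D.

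D325H and S510L were compared with each other at each density. At low density 1 of 9 was called (7.14% of all genes called), Xpc, higher with D325H by 0.63 ± 0.13 (limma, adjusted p = 0.00392), and at high density 0 were (9.71%), with 0 at an unadjusted p under 0.05, beside 3846 of the 14093 genes. The Xpc call ended with only those 6 libraries fitted (adjusted p = 0.0931). Gdf15 was lower with D325H low than with S510L low by -1.35 (95% interval -2.56 to -0.13, adjusted p = 0.167), and was called without D325H low 3 (adjusted p = 0.00871), as was Phlda3 (adjusted p = 0.0156). Ddb2 at high density was 9.86 to 10.4 TPM with D325H and 7.89 to 8.49 with S510L, a difference of 0.27 (-0.11 to 0.66). For Polk, Ercc5, Btg2 and Ei24 the differences lay between -0.32 and 0.12, with intervals from -0.80 to 0.60 at most.

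High and low density differed for none of the 9 within any construct, by limma with adjustment over all genes. The share of all genes called was 0.0781% with EV, 0% with WT, 4.11% with D325H, 1.04% with S510L and 1.04% with F428D. At an unadjusted p under 0.05 there was 1 gene each with EV, WT and F428D, in each case Polk, 1 with S510L, Xpc, and 0 with D325H. Of the 14093 genes, 979 with EV, 673 with WT, 2596 with F428D, 2365 with S510L and 3245 with D325H were under that p. So 1 of 9 does not stand apart from all genes. Polk read 18.3, 20.6 and 22.4 TPM in EV low and 16.9, 14.9 and 15.7 in EV high, and all libraries of low density exceeded those of high density in EV, WT and F428D, as in 14.7%, 8.91% and 13.2% of all genes. This held for 4 of the 9 with EV (Polk, Ercc5, Rrm2b and Ei24), for Polk alone with WT and for Polk and Phlda3 with F428D. Its differences, high minus low, were -0.35 ± 0.16, -0.42 ± 0.16 and -0.50 ± 0.16 (adjusted p = 0.69, 0.973 and 0.111). Xpc in S510L was higher at high density by 0.42 ± 0.13 (adjusted p = 0.0955). The S510L effect on Xpc differed between densities by 0.52 ± 0.18 (unadjusted p = 0.00778, adjusted p = 0.406), where 0.0710% of all genes were called, so that difference did not pass. None of the 9 passed for the D325H (0% of all genes called), F428D (0.0355%) or WT effect (0%), with 0 at an unadjusted p under 0.05 for each, beside 913, 495 and 337 of the 14093 genes.

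Next, each gene was set against the Trp53 level of its own library, in a fit with 1 mean per group, so that only differences between replicates of a group count. A slope of 1 means a doubling with each doubling of Trp53 on this scale. Of the 9, 6 had a called positive slope, beside 8.61% of all genes with a called positive slope and 12.3% called either way. Gdf15 was steepest (0.97 ± 0.12, limma, adjusted p = 1.98e-05) and Phlda3 the most precise (0.57 ± 0.03, adjusted p = 7.83e-11). Then came Btg2 at 0.31 ± 0.07, Ei24 at 0.27 ± 0.03, Ercc5 at 0.26 ± 0.06 and Polk at 0.22 ± 0.05 (adjusted p = 4.52e-05 to 0.00928). Xpc (-0.033, 95% interval -0.14 to 0.07), Ddb2 (-0.14, -0.28 to 0.0083) and Rrm2b (-0.00028, -0.12 to 0.12) were not called.

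**Figure D3:**
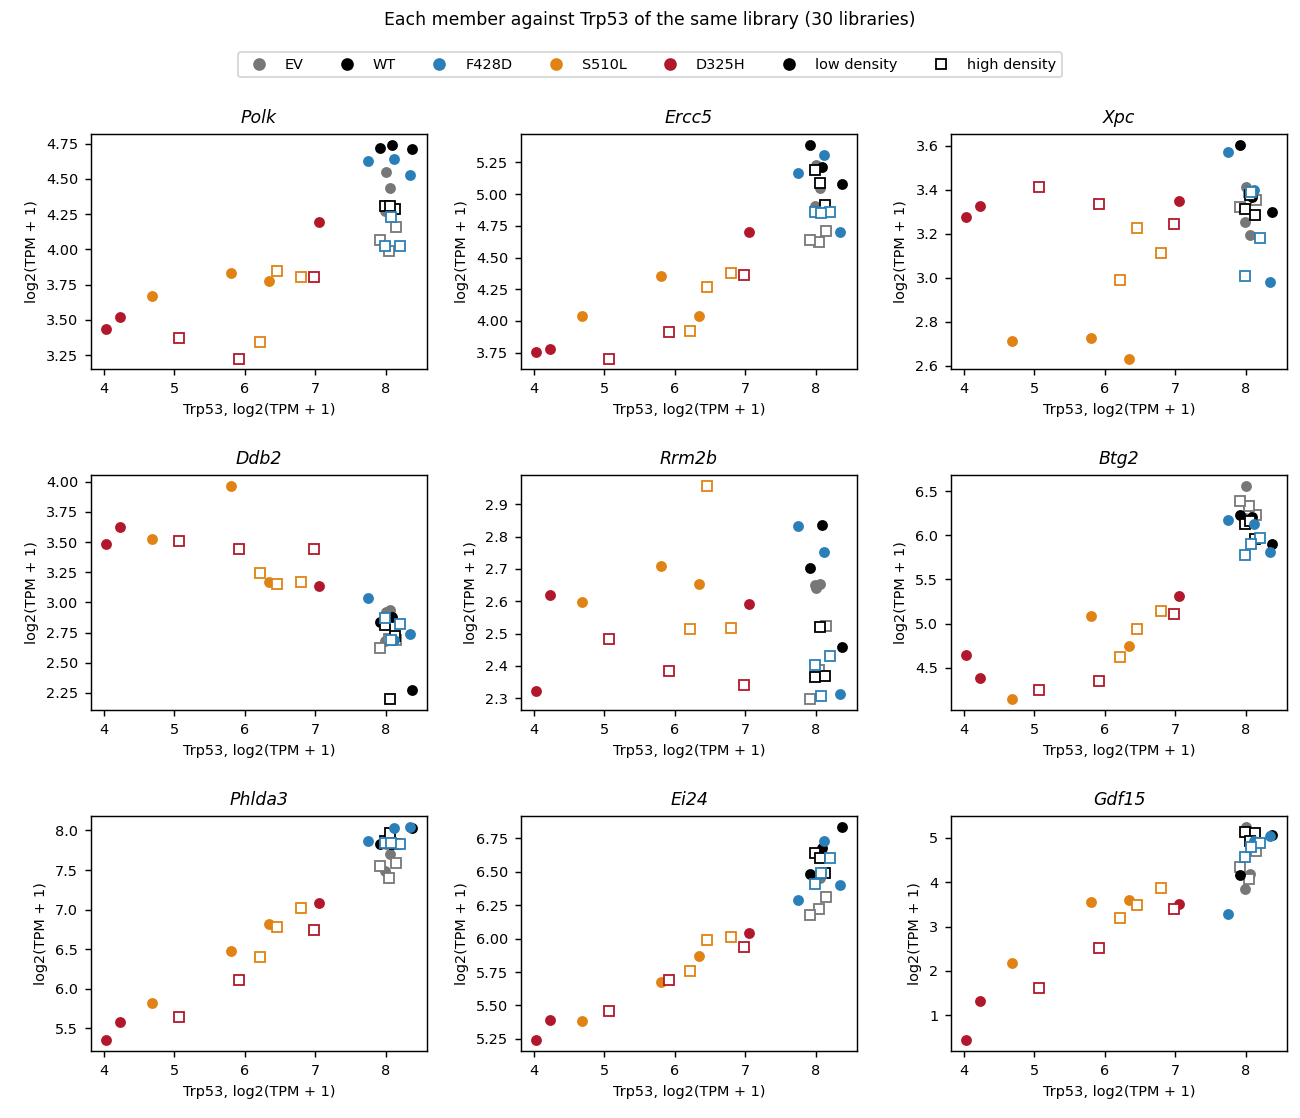
Each panel plots 1 gene against Trp53 of the same library, both in log2(TPM + 1), for 30 libraries coloured by construct, filled for low and open for high density. The EV, WT and F428D libraries sit together at the right, and the D325H and S510L libraries spread along a rising line for Phlda3, Ei24, Gdf15, Btg2, Ercc5 and Polk.

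These slopes rest mainly on the D325H and S510L libraries, where Trp53 varied. The 3 D325H low libraries held 60.0% of the squared Trp53 deviations within groups, and the 3 D325H high libraries 19.4%. Within D325H low, the libraries with 15.4, 17.7 and 131 TPM of Trp53 read 0.355, 1.52 and 10.4 TPM of Gdf15, 39.8, 46.8 and 134 of Phlda3, and 36.8, 41.0 and 64.9 of Ei24. In all 4 D325H and S510L groups the library with most Trp53 had most Phlda3, Ei24 and Gdf15, as it did in 3, 3 and 4 of the other 6 groups. For Ddb2 and Rrm2b it did in 0 of the 4. Without D325H low 3 the slopes of Polk, Ercc5 and Btg2 were not called (adjusted p = 0.195, 0.323 and 0.0957), and without all D325H libraries only that of Phlda3 was. In the EV, WT and F428D libraries alone, Gdf15 was the only one called, at 2.34, and Polk, Ercc5 and Btg2 had negative slopes that were not called (-0.063, -0.57 and -0.56, adjusted p = 0.817, 0.0827 and 0.06). In the D325H and S510L libraries alone, the same 6 slopes were called. Those 2 subsets of libraries were chosen after seeing the data. The S510L low and S510L high libraries held 15.1% and 1.85% of the squared Trp53 deviations. The D325H and S510L libraries together thus held most of them, and their fit largely repeats that over all 30 libraries. The share of all genes with a called slope when libraries were left out is not given here.

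With Trp53 of each library in the fit, most of the differences from WT were smaller. D325H gave 0 of 9 called at low density (0.0284% of all genes called) and 0 at high density (0.0497%). At an unadjusted p under 0.05 it gave 1 of 9, beside 974 of the 14092 genes, and 6 of 9, beside 1468. S510L gave 1 at low density (4.29%), Xpc at -0.82 ± 0.18 (limma, adjusted p = 0.00961), and 1 at high density (9.73%), Btg2 at -0.69 ± 0.20 (adjusted p = 0.0296). At an unadjusted p under 0.05 S510L gave 5 of 9 at each density, beside 2588 and 3520 of the 14092 genes. F428D gave 0 at both (0.0213% and 0.0639%), with 0 at an unadjusted p under 0.05. Phlda3 in D325H low went from -1.91 to -0.20 (95% interval -0.47 to 0.07), Gdf15 from -2.99 to -0.054 (-1.04 to 0.93) and Ei24 from -1.11 to -0.30 (-0.59 to -0.02). In S510L low Gdf15 changed sign, from -1.65 to values of 0.23 to 1.34 over 41 alternatives (limma, adjusted p = 0.141 to 0.804). The term uses 1 slope for all groups, and that of Gdf15 lay between 0.62 and 2.34 over its 43 alternatives. In D325H high, Phlda3 stayed at -0.55 ± 0.11 (adjusted p = 0.062), and it was called in 8 of its alternatives, with a range of adjusted p from 0.0262 to 0.262. Ddb2 kept positive values, 0.34 to 0.60 in the 4 comparisons, none called (adjusted p = 0.239 to 0.911). The construct and the Trp53 level move together here, as no WT library has a Trp53 level near those of D325H, so a difference given Trp53 extends the line beyond the Trp53 range of the WT libraries. The Xpc call ended without D325H low 3 (adjusted p = 0.0536), and the Btg2 call without D325H low 1 or 3, WT high 1 or 3, or S510L high 2 or 3 (adjusted p = 0.0648 to 0.158). Both ended without all D325H libraries (adjusted p = 0.422 for Xpc and 0.273 for Btg2).

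**Figure D4:**
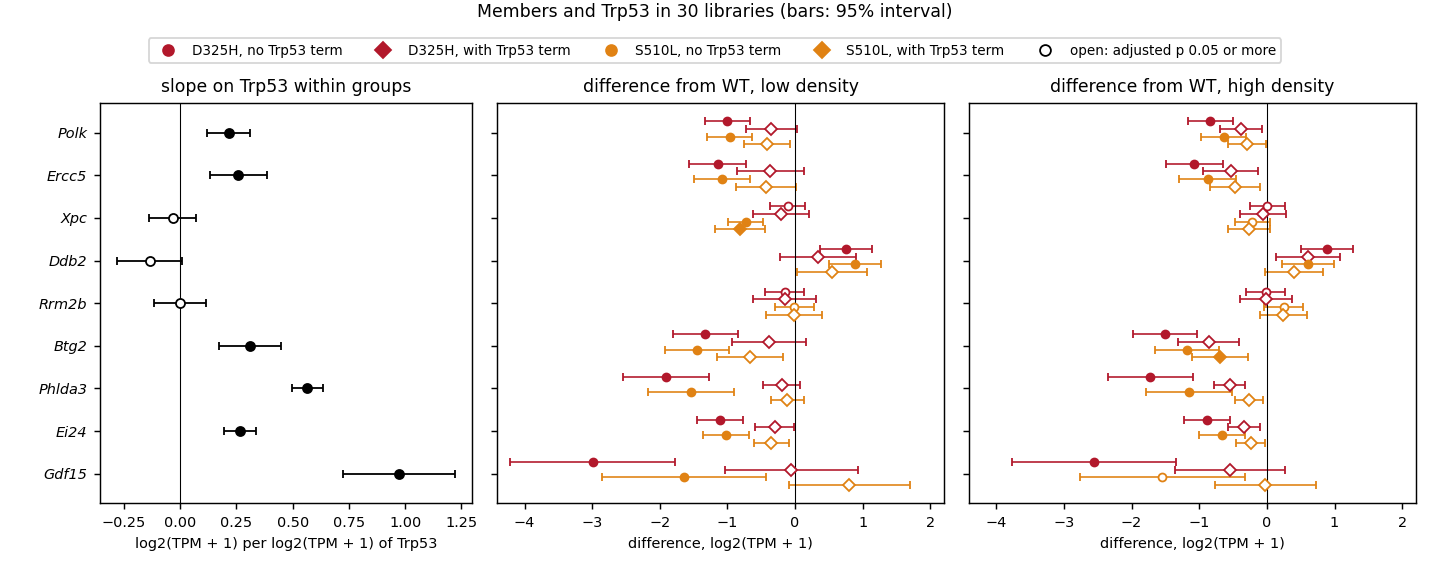
Left, the slope of each gene on Trp53 within groups; middle and right, differences from WT at low and high density before (circles) and after (diamonds) the Trp53 term, in log2(TPM + 1) with 95% intervals and filled where called. The diamonds lie nearer 0 than the circles for Polk, Ercc5, Ddb2, Btg2, Phlda3, Ei24 and Gdf15, and Xpc in S510L low and Btg2 in S510L high stay filled. For Gdf15 in S510L low the diamond lies on the other side of 0.

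The other genes of the same pathways were counted from lists. Against WT, 29.0%, 23.3%, 10.2% and 9.17% of all genes were called in D325H low, S510L low, D325H high and S510L high. A list with a count near or under that share does not stand apart from all genes. Of 27 other nucleotide excision repair genes, 2 were higher and 4 lower with D325H low, 1 and 2 with S510L low, 1 and 0 with D325H high and 1 and 0 with S510L high, with medians of -0.074, 0.077, -0.011 and 0.13. With D325H low, Mnat1, a subunit of the kinase in TFIIH, rose by 0.53 ± 0.14 (limma, adjusted p = 0.00703). Of 11 other genes of translesion synthesis, 1 was higher and 3 lower with D325H low, and 3 and 2 with S510L low (medians -0.082 and 0.16). Rev1, the scaffold polymerase of that pathway, was lower by -0.80 ± 0.17 and -0.67 ± 0.17 (adjusted p = 0.00141 and 0.00557), and Rchy1, a ubiquitin ligase also known as PIRH2, by -0.67 ± 0.14 and -0.70 ± 0.14 (adjusted p = 0.00117 and 0.00078).

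Among 11 other genes of deoxynucleotide supply, 1 was higher and 6 lower with D325H low, and 1 and 2 with S510L low (medians -0.63 and -0.13). Rrm2, the S-phase counterpart of Rrm2b, read 156 to 328 TPM in WT low and 20.9 to 136 in D325H low (-2.16 ± 0.50, limma, adjusted p = 0.00277), while Rrm2b was not called there. Dctd, a deaminase that makes dUMP, was lower by -0.95 ± 0.17 and Dguok, a mitochondrial nucleoside kinase, higher by 0.82 ± 0.16 (adjusted p = 0.000373 and 0.000847). Rrm2 was also the only one called of 22 proliferation genes with D325H low, and E2f1, higher, the only one with S510L low (0.74 ± 0.14, adjusted p = 0.000685), with medians of -0.44 and 0.27 over that list.

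Of 13 other genes of the BTG and TOB family and the deadenylase, Tob1, a relative of Btg2, was lower in all 4 comparisons, while the list had medians of 0.0059 with D325H low and 0.17 with S510L low. It read 125 to 150 TPM in WT low, 38.8 to 87.7 in D325H low and 43.6 to 67.0 in S510L low (-1.37 ± 0.23 and -1.25 ± 0.23, limma, adjusted p = 0.000198 and 0.000368). The deadenylase subunits Pan2 and Cnot6l rose by 0.40 ± 0.12 and 0.34 ± 0.11 with D325H low (adjusted p = 0.0183 and 0.024). Of 10 other genes of the PHLDA family and the AKT pathway, only Phlda1 was called with D325H low, lower by -1.52 ± 0.29 (adjusted p = 0.000665), and Phlda2 was higher with S510L low by 1.68 ± 0.36 (adjusted p = 0.00179), with list medians of 0.13 and 0.10. Of 5 tested genes of the GDF15 receptor and TGF-beta ligands, 2 were higher and 1, Ret, lower with D325H low (-0.99 ± 0.23, adjusted p = 0.00289), and the list median was -0.56.

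Gdf15 is also a target of ATF4, the transcription factor of the integrated stress response, so ATF4 targets are given beside it. Of 18, 1 was higher and 10 lower with D325H low, 5 and 2 with S510L low, 0 and 3 with D325H high, and 3 and 2 with S510L high, with medians of -0.45, -0.054, -0.36 and 0.16. Atf4 itself differed by -0.27 ± 0.09 with D325H low and 0.32 ± 0.09 with S510L low (limma, adjusted p = 0.0361 and 0.0185), while Gdf15 was lower with both. Trib3, a pseudokinase induced by ATF4, rose by 1.45 ± 0.21 with S510L low (adjusted p = 4.05e-05), and Sesn2, which both factors induce, fell by 1.66 ± 0.27 with D325H low (adjusted p = 0.000195) and was also called with S510L low (adjusted p = 0.000397). The part of ATF4 in the Gdf15 values was not tested.

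A list of 27 tested other p53 targets, which includes Trp53 itself, had 24 lower and 2 higher with D325H low, 21 and 2 with S510L low, 22 and 1 with D325H high, and 14 and 1 with S510L high, with medians of -1.90, -1.50, -1.57 and -1.10. Of 8 genes of the p53 family and its regulators, Mdm2, Mdm4 and Trp53 were lower with D325H low and S510L low, and Cdkn2a was higher with D325H low. The direction of these p53 lists direction was known when they were made and is no independent evidence. Sesn1, a sestrin, read 7.97 to 11.5 TPM in WT low, 17.4 to 22.0 in D325H low and 16.4 to 19.4 in S510L low. Like Ddb2 it rose, by 0.95 ± 0.12 and 0.86 ± 0.12 (limma, adjusted p = 2.31e-05 and 3.12e-05). Bax, a pore-forming death protein, fell by 1.86 ± 0.27 and 1.46 ± 0.27 (adjusted p = 6.6e-05 and 0.00042). Of 27 genes of other repair pathways, 1 was higher and 6 lower with D325H low, and 3 and 1 with S510L low (medians -0.21 and -0.0030). Mgmt, which removes alkyl groups from guanine, was lower in all 4 comparisons, by -1.45 ± 0.17 with D325H low and -1.49 ± 0.17 with S510L low (adjusted p = 6.81e-06 and 1.95e-06).

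The genes most alike in pattern over the 30 libraries were ranked by Pearson's r of log2(TPM + 1) among 9383 genes with mean TPM of at least 5. These libraries share groups, so r mostly repeats the order of the groups and is given as a description. Phlda3 was most like Ccng1 (r = 0.988), Bax and Ptp4a3 (both 0.985), Gdf15 most like Gtse1 (0.981), Eva1c (0.973) and Lmo1 (0.966), and Ei24 most like Cpped1 (0.981), Ptp4a3 (0.978) and Slc19a2 (0.976). Btg2 was most like Tob1 (0.977), Ephx1 (0.947) and Exoc4 (0.941), and Ercc5 most like Exoc4 (0.977), Trim11 (0.963) and Trp53inp1 (0.962). Polk was most like Rnf169 (0.943), Ercc5 and Susd6 (both 0.942). Ddb2 was most like Cdkn1b, a cyclin-dependent kinase inhibitor, Zscan21 and Zfand2b (0.893, 0.889 and 0.887), Xpc most like Dzip1 (0.856), Galk2 (0.827) and Rxra (0.820), and Rrm2b most like Ptpn12 (0.820) and Trim33 (0.816).

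Ordered by mean TPM over the groups, the 4 D325H and S510L groups took the lowest 4 of 10 places for Polk, Ercc5, Btg2, Phlda3, Ei24 and Gdf15, and the highest 4 for Ddb2. Neighbouring groups mostly lay within the sum of their SDs. For Btg2 the gap between the lowest of the other groups, F428D high at 58.1 ± 3.93 TPM (SD, n = 3), and the highest of these, S510L high at 29.1 ± 5.35, exceeded it. For Phlda3 the same step ran from 182 ± 13.1 TPM in EV high to 107 ± 22.7 in S510L high, and for Ei24 from 74.4 ± 3.57 to 59.7 ± 5.79. The corresponding step exceeded the sum of SDs for Ercc5, Gdf15 and Ddb2 as well, and for Polk it did not, at 15.8 ± 0.998 in EV high against 12.5 ± 4.14 in D325H low. For Xpc, S510L low at 5.45 ± 0.223 TPM stood apart from the group above it, S510L high at 7.65 ± 0.709, and for Rrm2b no neighbouring groups were apart.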

How the data were processed

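RNA was sequenced from 30 libraries (single-end, 50 nt). The authors deposited 1 table of TPM for 34724 gene symbols. Per the submitters' processing notes it was made with kallisto, version not given, and the assembly GRCh37.p13, a human assembly, whereas the samples are mouse, so the transcript set behind the values is open. kallisto shares reads among like transcripts. Columns were matched to samples through the sample number in their titles. TPM carry no depth, so no counting error is given. In the table, libraries sum to 960238 to 965790 TPM, and no columns were identical.

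On log2(TPM + 1), the 14093 genes that reached 1 TPM in 3 or more libraries were tested with limma 3.58.1 (R 4.3.3): 1 mean per group over all 30 libraries, empirical Bayes with a variance trend, Benjamini-Hochberg adjustment, threshold 0.05. A second fit added log2(TPM + 1) of Trp53 (14092 genes). The code was tested on simulated data. Gene positions are from GENCODE M21 (GRCm38). The 9 genes, the 11 other gene lists and the 8 marker lists were chosen with earlier results of these data known. Named are the 9 genes, Trp53, Cry2, from each list at most 3 genes of smallest p, and the 3 most alike genes. Acp2 was named after its values were seen, as were the values of Atf4, Sesn2, Trib3 and Bax in comparisons where they were not among those 3. Alternatives were other pseudocounts (0.1 and 5), filters and scalings, no variance trend, library weights, only the groups compared, no D325H libraries, each library left out in turn and the replicate number as a block. 3 further subsets of libraries were chosen after seeing the data. Some genes that this rule names are not reported here.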

Additional observations from a re-analysis of the deposited data

How the results depend on the processing

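Of 6610 values of the 9 genes under the alternatives, 6422 kept their direction and side of the threshold, 95 lost a call, 89 gained one and 4 reversed. The reversed ones were slopes on Trp53: Ercc5 at -0.0056 without D325H libraries, and Polk at -0.063, Ercc5 at -0.57 and Btg2 at -0.56 without D325H and S510L libraries. Counts of called genes that moved by more than 1.5 times, or to or from 0, are given with the count as reported in brackets, and the cause was not tested. Smaller moves are not listed. The share of all genes called under each alternative is not given here. These counts therefore do not show whether the 9 genes moved more than all genes did. With library weights, 58 of 288 values gained a call and 0 lost one.

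With a pseudocount of 0.1, or mean TPM of at least 5 (where Rrm2b has no value), D325H high given Trp53 had 1 (0). With no filter, D325H high against EV had 1 (3) and S510L high given Trp53 0 (1). Quantile normalization gave S510L high against EV 2 (1), D325H against S510L high 1 (0), density in S510L 1 (0), and given Trp53 D325H high 1 (0) and S510L high 3 (1). Median-ratio scaling gave S510L high against EV 2 (1), density in S510L 1 (0), and given Trp53 D325H high 1 (0) and S510L high 2 (1). It moved the median of all genes in S510L high given Trp53 from 0.125 to -0.014 (log2). The share of calls that were higher, against WT, went from 64.3% to 50.1% (quantile) and 55.3% (median-ratio) in S510L low, and from 80.6% to 54.7% and 53.7% in S510L high.

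Library weights gave WT against EV high 2 (0), against EV at high density D325H 7 (3), S510L 7 (1) and F428D 1 (0), D325H against S510L 4 (1) at low and 7 (0) at high density, density in WT 3, D325H 3 and S510L 7 (all 0), the difference of effects between densities 2 for D325H and 8 for S510L (both 0), and given Trp53 S510L low 3 (1), D325H high 1 (0) and S510L high 5 (1). With only the groups compared fitted, D325H low had 0 (7) against WT and 0 (7) against EV, D325H high against EV 0 (3), S510L high against EV 6 (1) and D325H against S510L low 0 (1). Without D325H libraries the called slopes were 1 (6), and S510L given Trp53 had 0 (1) at both densities; without D325H and S510L libraries the called slopes were 1 (6).

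With 1 library left out, counts ranged from 7 to 7 (D325H low) and 7 to 8 (S510L low) against WT, 6 to 7 and 2 to 5 at high density, 4 to 7 for both against EV at low and 1 to 4 (D325H) and 1 to 1 (S510L) at high density, 1 to 3 for D325H against S510L low, 3 to 6 for slopes, and given Trp53 0 to 2 (S510L low), 0 to 1 (D325H high) and 0 to 1 (S510L high). The others stayed at 0. Replicate numbers did not pair the samples (correlations of same-numbered deviations -0.238 to 0.483, in 0 of 21 comparisons all over 0.1). The replicate block left all 288 values on their side of the threshold, with 7 called in D325H low and 8 in S510L low against WT. TPM without read counts, 3 libraries a group and unknown independence of the lines limit all values, and Trp53 varied mainly within D325H.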
